A study of Triticum urartu with 18 samples.

Results

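The low molecular weight glutenin subunit (LMW-GS) genes of Triticum urartu, a wild diploid wheat, were followed through grain filling. They were taken from an RNA-Seq table of 27121 genes as the genes that the authors annotate as LMW-GS, of which there are 3: TuA3-520, TuA3-538a and TuA3-576c. The 18 libraries came from untreated wild type plants of accession PI 428198. Endosperm was collected at 5, 10, 15, 20 and 25 days post anthesis (DPA), and flag leaf was collected at 10 DPA. Each of the 6 groups had 3 biological replicates per the labels, and embryo, aleurone, seed coat and pericarp had been removed from the endosperm. One accession was grown in 1 field season, so the values describe that accession and season.

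Glutenins and gliadins are the prolamins that wheat stores in the starchy endosperm as a reserve for the seedling. LMW glutenin subunits form disulfide bonds with one another and with the high molecular weight (HMW) subunits, and the resulting polymer gives gluten its strength. Gliadins remain mostly monomeric. Their genes are transcribed in the developing endosperm, where promoter elements such as the prolamin box and the GCN4 motif are bound by Dof and bZIP factors.

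Values are FPKM, which divide the fragments of a gene by its transcript length and by the size of the library, so levels can be set beside each other between genes of unlike length. Columns of the table name a group and not a sample, so library numbers are column numbers. The total FPKM of a library ran from 1300333 to 3605504, and between 9328 and 21594 genes were above 0 in the endosperm libraries. Fragment totals were not among the files. A relative depth estimated from the steps between the lowest FPKM values ran from 0.325 in leaf library 1 to 1.06 in 5 DPA library 2, with 10 DPA library 1 set to 1. For 20 DPA library 1 that estimate, made through library 2 of its group, was 0.812, whereas a direct comparison with 10 DPA library 1 gave 1.61, so its depth is uncertain. The 25 DPA libraries were unlike one another: libraries 1, 2 and 3 held 10644, 17135 and 17237 genes above 0. Granule-bound starch synthase TuGBSSI, an endosperm marker, had 42.3 to 1245 FPKM in the endosperm libraries up to 15 DPA and 2.17 to 73.5 FPKM at 25 DPA. All 3 leaf libraries list it at 0. At 20 DPA it was listed at 0 in libraries 1 and 3 and stood at 0.76 FPKM in library 2.

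TuA3-538a was the most abundant of the genes at every stage by its mean. It had 2.20, 28.4 and 21.9 FPKM at 5 DPA, 25847, 26193 and 27775 at 10 DPA, and 38626, 31713 and 39569 at 15 DPA. At 20 DPA it had 3917, 5332 and 3540 FPKM, and at 25 DPA 1601, 26163 and 3715. The leaf libraries had 1.12, 2.58 and 1.19 FPKM. The gene thus peaked at 15 DPA, where its 3 libraries lay above those of every other stage. The 25 DPA libraries spanned from below every 20 DPA library to within the 10 DPA range.

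TuA3-520 had 2.60, 13.8 and 13.7 FPKM at 5 DPA, 23122, 23433 and 25124 at 10 DPA, and 32581, 26287 and 33804 at 15 DPA. It had 2963, 4250 and 2807 FPKM at 20 DPA and 1123, 16413 and 1539 at 25 DPA. In leaf it was listed at 0 in library 1 and had 2.04 and 1.21 FPKM in libraries 2 and 3. Its order of stages was the same as for TuA3-538a, except that 2 of its 25 DPA libraries, not 1, lay well below the 20 DPA range.

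TuA3-576c was the least abundant up to 20 DPA, with 1.45, 13.7 and 6.84 FPKM at 5 DPA, 18100, 18350 and 19760 at 10 DPA, and 28550, 22911 and 28278 at 15 DPA. It had 2460, 3229 and 2232 FPKM at 20 DPA and 1047, 17575 and 2291 at 25 DPA. In leaf libraries 1 and 2 it had 1.11 and 0.75 FPKM, and in library 3 it was listed at 0. At 10 DPA the libraries of the genes did not overlap, in the order TuA3-538a, TuA3-520, TuA3-576c. At 15 and 20 DPA the ranges of neighbours in that order overlapped.

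**Figure D1:**
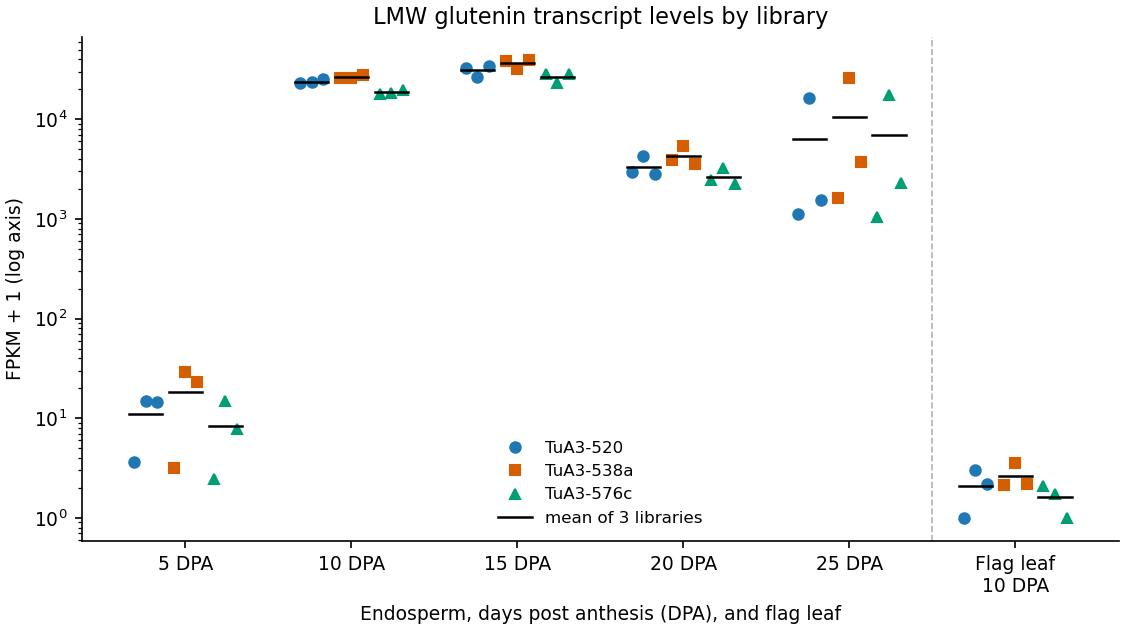
FPKM + 1 (log axis) of the 3 LMW-GS genes in each library, by endosperm stage and in flag leaf. Points are libraries in column order and bars are means of 3. All genes are at 28.4 FPKM or less at 5 DPA, at 18100 or more at 10 and 15 DPA and between 2232 and 5332 at 20 DPA, and at 25 DPA library 2 stands far above libraries 1 and 3.

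The genes varied together among the replicates of a stage. Library 1 was lowest for all 3 genes at 5 DPA, and library 2 was highest. At 15 DPA library 2 was lowest for all 3, and at 20 DPA library 2 was highest for all 3 and library 3 lowest. At 25 DPA library 2 was highest and library 1 lowest, for the LMW-GS genes and for all 21 storage prolamin genes. The SD was 3.86% to 4.78% of the mean at 10 DPA, 11.7% to 13.1% at 15 DPA and 19.8% to 23.7% at 20 DPA. It was 64.1% to 83.9% at 5 DPA and 130% to 137% at 25 DPA, so means at those stages describe no typical library.

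LMW-GS transcripts were among the most abundant in filling endosperm. At 15 DPA, TuA3-538a ranked 10 to 13 among all genes of a library by FPKM, TuA3-520 ranked 14 in each library and TuA3-576c ranked 15 to 17. At 20 DPA, TuA3-538a ranked 32 or 33, TuA3-520 ranked 34 and TuA3-576c ranked 37. In 25 DPA library 1 the ranks were 37, 40 and 42 in the same gene order. They were 16, 23 and 22 in library 2 and 46, 98 and 61 in library 3. Of all FPKM in a library, the genes together held 0.00256% at 5 DPA (SD 0.00192, n = 3), 3.85% at 10 DPA (SD 0.225), 4.74% at 15 DPA (SD 0.549) and 0.286% at 20 DPA (SD 0.0649). Their share in the single 25 DPA libraries was 0.105%, 3.26% and 0.402%.

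The step between 5 and 10 DPA held the steepest change, and all 3 LMW-GS genes rose there by more than the spread between libraries. TuA3-576c had a mean of 18736 FPKM (SD 895, n = 3) at 10 DPA and of 7.34 FPKM (SD 6.16, n = 3) at 5 DPA. On the log2(FPKM + 1) scale, which understates the change of genes low in one group, limma put its change at 11.48 with an SE of 0.86 (adjusted p = 1.06e-07 over all genes tested). TuA3-520 changed by 11.34 (95% interval 9.55 to 13.14) and TuA3-538a by 11.01 (9.06 to 12.95), and the intervals of the 3 genes overlapped. Genes were called at a Benjamini-Hochberg adjusted p under 0.05 if they also changed by at least 1 on the log2 scale. In this contrast 3.16% of the 19418 tested genes were called higher and 45.6% lower. The median log2 change was 11.34 for the LMW-GS genes and -1.23 for all genes tested. The LMW-GS calls also held after median-ratio scaling, which brings libraries to a common level by the genes detected in each of them: the log2 changes were then 11.80 to 12.08, while 4.86% of all genes were called higher and 7.19% lower.

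At 15 against 10 DPA, the middle of filling, the means of all 3 genes were higher at 15 DPA but none was called, with 0 of 3 at an unadjusted p under 0.05. TuA3-538a had a mean of 36636 FPKM (SD 4289, n = 3) at 15 DPA and of 26605 FPKM (SD 1028, n = 3) at 10 DPA. Its log2 change was 0.46, and the 95% interval ran from -1.49 to 2.40. For each of the genes every 15 DPA library lay above every 10 DPA library, which in an exact test of 3 against 3 libraries cannot give a p below 0.1. How many of all genes separate in this way was not counted. The total FPKM was also higher at 15 DPA, at 1931439 to 2058668 against 1772166 to 1826023. As a percent of total FPKM, TuA3-520 overlapped, with 1.34% in 15 DPA library 2 and 1.42% in 10 DPA library 3. TuA3-538a and TuA3-576c did not overlap on that measure, and the share of all genes without overlap was not counted for it either. The limma interval pools the spread of all stages, 25 DPA included. With the compared groups fitted alone, limma gave adjusted p of 0.0922 for TuA3-520, 0.0438 for TuA3-538a and 0.0282 for TuA3-576c, at log2 changes of 0.36, 0.46 and 0.50 that lie below the size of 1 a call needs. Without the 25 DPA stage the adjusted p were 0.518, 0.566 and 0.411 in the same order. By limma 1.28% of all tested genes were called higher here. After median-ratio scaling the log2 changes were 1.12, 1.21 and 1.26 (limma adjusted p = 0.449, 0.386 and 0.307) and 0 of the 3 were called, while 3.17% of all genes were called higher and 6.79% lower.

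At 20 against 15 DPA, late filling, all 3 genes fell as deposited. TuA3-520 had a mean of 3340 FPKM (SD 792, n = 3) at 20 DPA and of 30891 FPKM (SD 4033, n = 3) at 15 DPA. Its log2 change in limma was -3.23 (SE 0.84), with an adjusted p of 0.00835. TuA3-538a changed by -3.12 (SE 0.91, limma adjusted p = 0.0139) and TuA3-576c by -3.34 (SE 0.86, limma adjusted p = 0.00775). Of all tested genes, 0.690% were called higher and 43.0% lower. The median log2 change was -3.23 for the LMW-GS genes and -1.09 for all genes. After median-ratio scaling 0 of the 3 were called, at log2 changes of -0.36, -0.25 and -0.48 for TuA3-520, TuA3-538a and TuA3-576c, and 3.79% of all genes were called higher and 11.3% lower. The total FPKM was 3556315 to 3596339 in the 20 DPA libraries and 1931439 to 2058668 in those of 15 DPA. The 20 DPA libraries held 9479, 11010 and 9328 genes above 0, against 15950, 16131 and 15305 in the 15 DPA libraries. The starch gene TuGBSSI had a log2 change of -8.29 in the same contrast, and of -7.68 after median-ratio scaling (limma adjusted p = 8.16e-04). The part of these differences in the LMW-GS change was not tested. In bulk tissue, fewer cells that express a gene and less of its RNA per cell cannot be told apart.

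At 25 against 20 DPA, the last interval, no LMW-GS gene was called as deposited, with 0 of 3 at an unadjusted p under 0.05. The log2 change of TuA3-538a was 0.36 (95% interval -1.59 to 2.30), that of TuA3-576c 0.42 (-1.42 to 2.25) and that of TuA3-520 -0.11 (-1.90 to 1.69). For each gene, 25 DPA library 2 lay above all 20 DPA libraries and library 1 below them. Of all tested genes 35.3% were called higher and 0.154% lower. Over all of them the median log2 change was 1.00. After median-ratio scaling the changes were -2.17, -2.11 and -2.63 in the same gene order, and TuA3-520 was called lower (limma adjusted p = 0.0451). That scaling called 6.46% of all genes higher and 2.72% lower.

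Between 15 DPA, the peak, and 25 DPA, TuA3-520 was called lower, changing by -3.33 on the log2 scale (SE 0.84, limma adjusted p = 0.0335). The log2 change was -2.92 for TuA3-576c (limma adjusted p = 0.072) and -2.76 for TuA3-538a (limma adjusted p = 0.117), and neither was called. Of all tested genes 1.04% were called higher and 3.64% lower. After median-ratio scaling TuA3-520 and TuA3-576c were called lower, as were 5.20% of all genes, and 3.30% were called higher. The TuA3-520 call was lost without 25 DPA library 3 or any 1 of the 15 DPA libraries, and all 3 genes were called without 25 DPA library 2, so the number of calls depended on single libraries. Whether TuA3-520 fell more than the other genes between 15 and 25 DPA was not tested on its own. The ratios given next were tested over several stages at once.

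Against 5 DPA, all 3 genes were higher at 25 DPA despite the spread. The log2 changes were 8.37 for TuA3-520, 8.70 for TuA3-538a and 9.05 for TuA3-576c (SE 0.84 to 0.91, limma adjusted p = 5.54e-07, 8.48e-07 and 3.05e-07 in that order). Of all tested genes 3.60% were called higher and 72.0% lower, or 7.93% and 22.8% after median-ratio scaling. The 3 were also called higher after that scaling, at larger log2 changes of 10.21 to 10.72. With 1 library left out the deposited changes ranged over 7.16 to 9.09 for TuA3-520, 7.56 to 9.58 for TuA3-538a and 7.88 to 9.92 for TuA3-576c. An F-test over the 5 stages called all 3 as well, but it called 92.1% of all genes, and 52.3% after scaling.

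**Figure D2:**
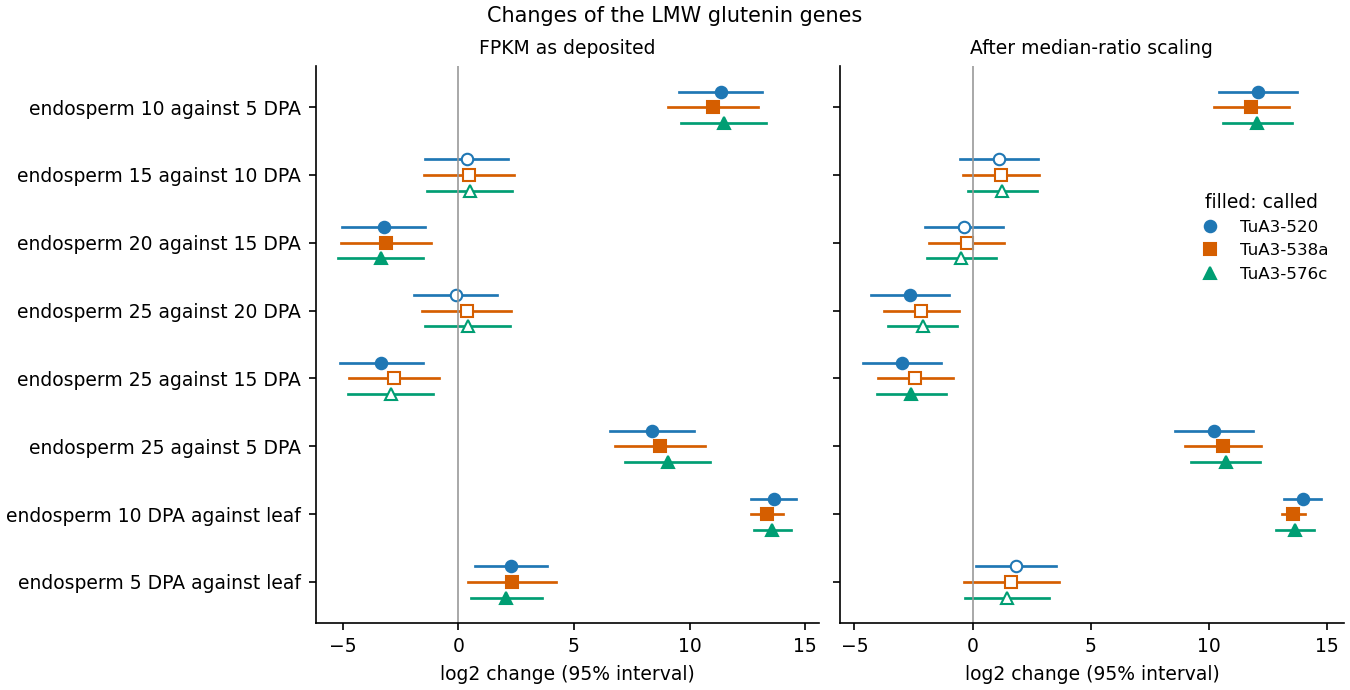
log2 change of each LMW-GS gene in 8 comparisons with its 95% interval, from FPKM as deposited (left) and after median-ratio scaling (right). Filled symbols are called. The 20 against 15 DPA change is near -3 on the left and near 0 on the right, and the 25 against 20 DPA change is near 0 on the left and below -2 on the right.

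Ratios between LMW-GS genes within a library do not move with its total FPKM. TuA3-538a to TuA3-520 had a ratio of 1.12, 1.12 and 1.11 in the 10 DPA libraries, 1.19, 1.21 and 1.17 at 15 DPA, 1.32, 1.25 and 1.26 at 20 DPA and 1.43, 1.59 and 2.41 at 25 DPA. The ratio was thus higher at each stage than at the one before, with no overlap between stages from 10 DPA on. At 5 DPA, where all levels were low, it was 0.846, 2.07 and 1.60. TuA3-538a was above TuA3-520 in 14 of the 15 endosperm libraries.

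TuA3-576c to TuA3-520 had a ratio of 0.783, 0.783 and 0.786 in the 10 DPA libraries, 0.876, 0.872 and 0.837 at 15 DPA and 0.830, 0.760 and 0.795 at 20 DPA. At 25 DPA the libraries had 0.933, 1.07 and 1.49, all above those of 10, 15 and 20 DPA. TuA3-538a to TuA3-576c kept closer values from 10 DPA on, with means of 1.42 at 10 DPA (SD 0.0128, n = 3), 1.38 at 15 DPA (SD 0.0237), 1.61 at 20 DPA (SD 0.036) and 1.55 at 25 DPA (SD 0.0682). Of the LMW-GS FPKM, TuA3-520 made up 25.8% (SD 4.86) at 25 DPA and 34.5% (SD 0.0604) at 10 DPA, and TuA3-538a 45.1% (SD 3.65) at 25 DPA and 38.4% (SD 0.178) at 10 DPA.

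Over the 5 stages none of the 3 ratios passed an exact permutation test of the F statistic (adjusted p = 0.165, 0.113 and 0.165 over the 3 pairs, in the order given above). That test includes the scattered 5 DPA ratios. From 10 to 25 DPA all 3 passed that test, with adjusted p = 1.9e-04 for TuA3-538a to TuA3-520, 9.7e-04 for TuA3-576c to TuA3-520 and 0.00136 for TuA3-538a to TuA3-576c. The first has an unadjusted exact p of 6.5e-05, and with 15400 partitions no smaller p can occur. Spread was unequal among these stages: the log2 ratio of TuA3-538a to TuA3-520 had an SD of 0.00923 at 10 DPA and 0.400 at 25 DPA. The test takes all libraries as exchangeable, so its p can reflect unequal spread as well as level. Without the 25 DPA stage but with 5 DPA the adjusted p were 0.642, 0.642 and 0.478. LMW-GS genes are near relatives, and how the authors assigned reads that match several of them is not given in the sources used here, so the ratios may include shared reads. None of the 3 had values identical to those of another gene.

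**Figure D3:**
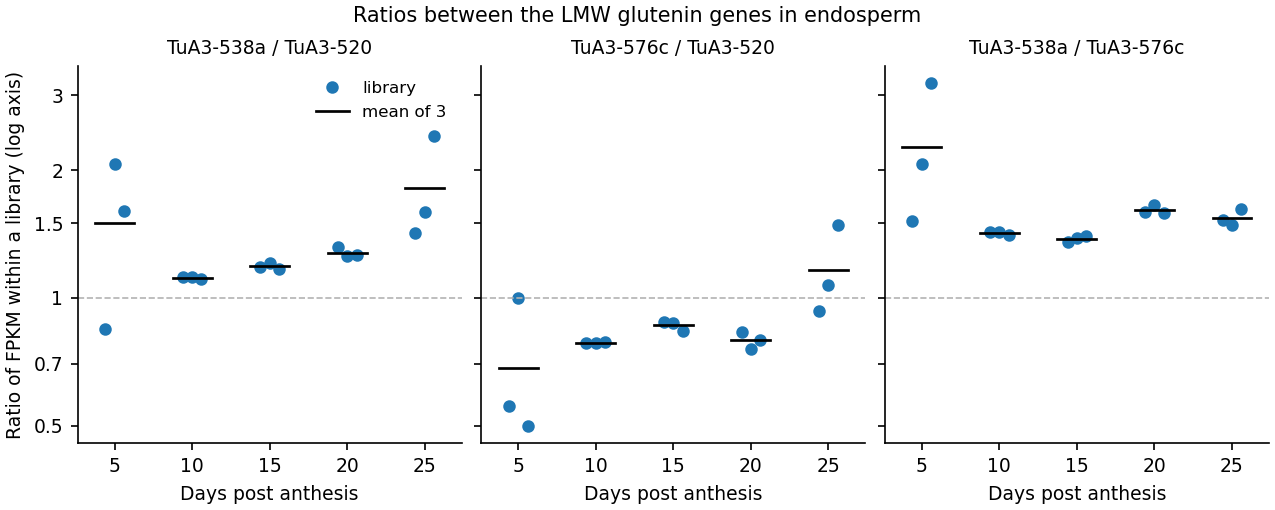
Ratio of FPKM between pairs of LMW-GS genes within each endosperm library (log axis) by days post anthesis. Points are libraries and bars are means of 3. The TuA3-538a to TuA3-520 ratio is 1.43 to 2.41 at 25 DPA and 1.11 or 1.12 at 10 DPA, and at 5 DPA the points scatter widely.

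The other 18 storage prolamins were 2 HMW-GS genes, TuGlu-1Ax and TuGlu-1Ay, 12 α gliadin genes, and 4 γ and ω gliadin genes. All 18 were called higher at 10 than at 5 DPA, beside 3.16% of all tested genes. All 18 were called lower at 20 than at 15 DPA, beside 43.0% of all genes. At 15 against 10 DPA none was called (0 at an unadjusted p under 0.05), beside 1.28% of all genes called higher and 16.7% lower. The median log2 changes of the 18 were 11.62, -3.84 and 0.33 in that order, beside 11.34, -3.23 and 0.46 for the LMW-GS genes. After median-ratio scaling 18 of the 18 were still called higher at 10 than at 5 DPA, beside 4.86% of all genes. In the scaled values 0 of them were called lower at 20 than at 15 DPA, where 3 had an unadjusted p under 0.05, beside 11.3% of all genes called lower. At 25 against 20 DPA 0 of the 18 were called as deposited and 12 were called lower after scaling, beside 2.72% of all genes called lower after scaling. At 25 against 15 DPA 14 were called lower as deposited and 18 after scaling, beside 3.64% and 5.20% of all genes. All 12 α gliadin genes were called lower in that contrast in both settings. The most abundant gliadin, Gli-γ-1, averaged 52897 FPKM at 10 DPA, and the least abundant, Gli-α-9, averaged 366.

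The LMW-GS share of all storage prolamin FPKM had a mean of 21.9% at 10 DPA (SD 0.746, n = 3), 22.4% at 15 DPA (SD 1.95) and 27.9% at 20 DPA (SD 1.01). It was 27.4%, 26.8% and 20.2% in the single 25 DPA libraries. From 10 to 20 DPA the α gliadin share had means of 40.6% (SD 0.611), 34.8% (SD 1.95) and 27.9% (SD 0.444), with 31.4%, 25.3% and 22.5% at 25 DPA. The HMW-GS share had means of 5.35% (SD 0.748), 6.69% (SD 0.511) and 5.43% (SD 0.766), with 7.89%, 8.48% and 8.14% at 25 DPA. The γ and ω gliadin share had means of 32.1% (SD 2.00), 36.1% (SD 1.22) and 38.8% (SD 1.22), with 33.3%, 39.4% and 49.2% at 25 DPA. The 20 DPA libraries lay above all of 10 and 15 DPA in their LMW-GS share and also in their γ and ω gliadin share, and below them in their α gliadin share.

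Each LMW-GS gene was then set against the summed FPKM of each other class within a library, a test chosen after the values were seen. TuA3-576c to the HMW-GS sum had means of 0.489 at 5 DPA (SD 0.00558, n = 3), 1.12 at 10 DPA (SD 0.111), 0.953 at 15 DPA (SD 0.133), 1.35 at 20 DPA (SD 0.199) and 0.881 at 25 DPA (SD 0.112). An exact permutation test of this ratio over the 5 stages gave p = 1.4e-04, or 0.00128 when adjusted over 9 ratios. The test added 1 FPKM to both terms, so the small SD printed for 5 DPA is not the spread it used. The TuA3-576c levels behind that SD were low, at 1.45, 13.7 and 6.84 FPKM. TuA3-538a to the α gliadin sum had means of 0.208 at 10 DPA (SD 0.00377), 0.252 at 15 DPA (SD 0.0336), 0.416 at 20 DPA (SD 0.0132) and 0.425 at 25 DPA (SD 0.0489). With the scattered 5 DPA values this gave an exact permutation adjusted p of 0.0615, and from 10 DPA on 0.00438. The ratios to the γ and ω gliadin sum did not pass for any of the 3 genes (exact permutation adjusted p = 0.134 to 0.586). With a pseudocount of 5 all 3 passed (0.00432, 0.0198 and 0.012), but 5 lies within the range of the 5 DPA levels and moves the ratios of that stage. Leaving out 5 DPA library 1 gave 0.00748, 0.00748 and 0.0197. From 10 DPA on none of the 3 passed (exact permutation adjusted p = 0.333, 0.511 and 0.975). Over the 5 stages all ratios to the HMW-GS sum passed, and those to the α gliadin sum passed for TuA3-520 and TuA3-576c (adjusted p = 0.0347 and 0.024). Only the call of TuA3-576c to the HMW-GS sum held with each library left out. The other 4 calls were each lost without library 1 or 2 of 10 DPA or of 20 DPA, with adjusted p of up to 0.0892. The TuA3-520 calls were also lost without library 1 or 2 of 15 DPA, and its α gliadin call without 5 DPA library 2 or library 3 of 10 or 20 DPA. A pseudocount of 0.1 ended both α gliadin calls.

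**Figure D4:**
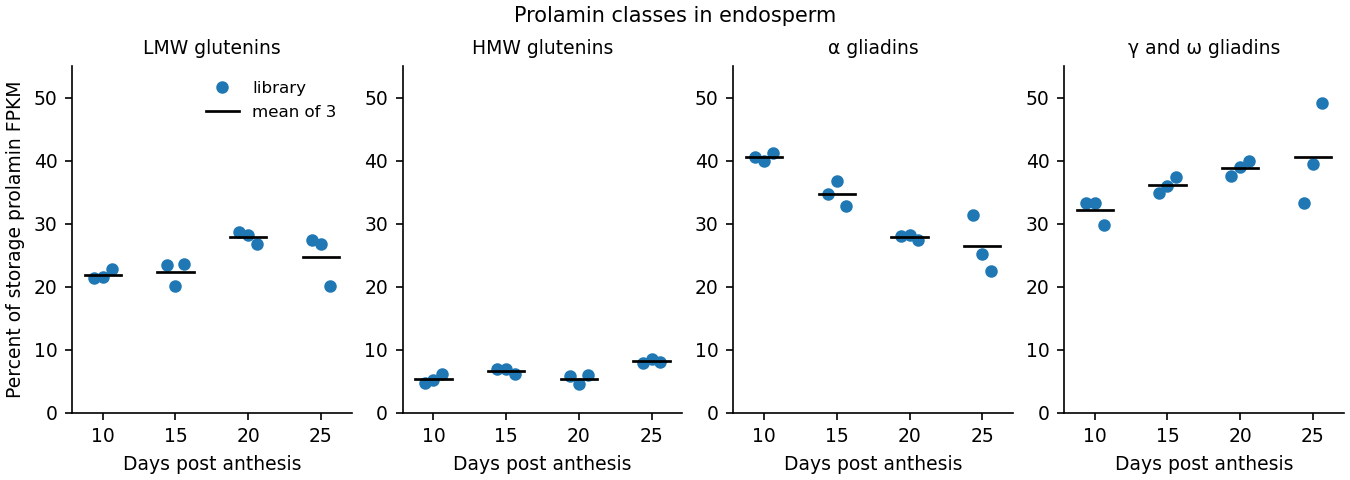
Share of the summed FPKM of 21 storage prolamin genes taken by each class in the endosperm libraries at 10 to 25 DPA. Points are libraries and bars are means of 3. The mean LMW-GS share is 21.9% at 10 DPA, 22.4% at 15 DPA and 27.9% at 20 DPA, while the α gliadin share is 40.6% at 10 DPA and 27.9% at 20 DPA.

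Genes with the profile most like an LMW-GS gene were ranked by Pearson r of log2(FPKM + 1) over the 15 endosperm libraries, which share the steep change between 5 and 10 DPA, among 11372 other genes whose mean reached 10 FPKM at some stage. For TuA3-520 they were Gli-α-11 (r = 0.997), Gli-α-7 (0.996) and Gli-α-12 (0.996). For TuA3-538a they were Gli-γ-2 (0.997), TuGlu-1Ax (0.996) and the unannotated gene TRIUR3_09156 (0.996). For TuA3-576c they were TuGlu-1Ax (0.997), TRIUR3_09156 (0.997) and Gli-γ-2 (0.997). The LMW-GS genes correlated with one another at r = 0.997 to 0.999. Of the 20 most alike, 17, 16 and 15 were storage prolamins, for TuA3-520, TuA3-538a and TuA3-576c in turn, and the others were unannotated.

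The table names 12 regulators and processing genes of storage proteins. At 10 against 5 DPA, 3 of the 12 were called higher and 1 lower, beside 3.16% of all tested genes called higher and 45.6% lower. TuWPBF (TRIUR3_33098), a Dof factor named for the prolamin box, had 117, 138 and 127 FPKM at 10 DPA, against 11.8, 9.78 and 14.8 at 5 DPA, with no overlap. Its log2 change was 3.30 (limma adjusted p = 5.39e-04). TuSPA (TRIUR3_18984), a bZIP storage protein activator, had 17.9, 15.7 and 18.8 FPKM at 10 DPA, against 0.32, 0.60 and 1.69 at 5 DPA, which limma put at 3.37 on the log2 scale (SE 0.55, adjusted p = 1.61e-04). TuGAMYB (TRIUR3_27104), a MYB factor, changed by 1.92 (limma adjusted p = 0.0253). The gene called lower was TuOHP1 (TRIUR3_24233), a bZIP factor, at -1.69 (limma adjusted p = 0.0374). Under median-ratio scaling 4 of the 12 were called higher and 0 lower, beside 4.86% and 7.19% of all genes. The 3 higher calls held, TuPdi was added at 2.20 (limma adjusted p = 4.28e-06), and TuOHP1 was at -0.45 (limma adjusted p = 0.554).

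At 15 against 10 DPA, when the LMW-GS means were at their highest, 0 of the 12 were called higher and 3 lower, beside 16.7% of all tested genes called lower. TuPdi (TRIUR3_24343), named for protein disulfide isomerase, which forms and rearranges disulfide bonds in the endoplasmic reticulum, had 183, 248 and 156 FPKM at 15 DPA, against 2615, 2835 and 2558 at 10 DPA. Its log2 change in limma was -3.79 (SE 0.76), with an adjusted p of 0.00261, and -3.03 after median-ratio scaling, where it was also called. The others were Tuglup3 (TRIUR3_18628), whose rice namesake is a vacuolar processing enzyme, at -4.74, and Tuglup2 (TRIUR3_21622) at -2.29. TuWPBF and TuSPA had log2 changes of -1.75 and -1.57 (limma adjusted p = 0.0608 and 0.0571) and were not called. The median log2 change of all tested genes was -0.65. For both TuWPBF and TuSPA the 15 DPA libraries lay below those of 10 DPA. How many of all genes did so was not counted. After median-ratio scaling the log2 changes of TuWPBF and TuSPA were -0.999 and -0.85 (limma adjusted p = 0.619 and 0.561). At 20 against 15 DPA 10 of the 12 were called lower, beside 43.0% of all tested genes. With median-ratio scaling 3 of the 12 were called lower, TuWPBF, Tuglup3 and TuPdi, beside 11.3% of all genes.

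The flag leaf libraries give a vegetative tissue at 10 DPA. All 3 LMW-GS genes were higher in endosperm, where 21.7% of 16709 tested genes were called higher and 27.1% lower. TuA3-538a had a mean of 26605 FPKM (SD 1028, n = 3) in endosperm and of 1.63 FPKM (SD 0.823, n = 3) in leaf. The log2 difference in limma was 13.35 (SE 0.31), with an adjusted p of 3.02e-07. The differences were 13.63 for TuA3-520 and 13.56 for TuA3-576c. All 3 were also called after median-ratio scaling, with 28.7% of all genes called higher and 25.9% lower. The leaf titles carry a suffix that most endosperm titles lack, and its meaning is not given.

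At 5 DPA, before the rise, the LMW-GS genes had means of 10.0 FPKM for TuA3-520, 17.5 for TuA3-538a and 7.34 for TuA3-576c, against 1.08, 1.63 and 0.62 in leaf. TuA3-538a had 2.20, 28.4 and 21.9 FPKM in 5 DPA endosperm, against 1.12, 2.58 and 1.19 in 10 DPA leaf. Library 1 of the endosperm lay within the leaf range for that gene, and libraries 2 and 3 above it. For TuA3-520 and TuA3-576c every endosperm library lay above every leaf library. The lowest endosperm values were 2.60 and 1.45 FPKM, against highest leaf values of 2.04 and 1.11. How many of all genes separate in this way was not counted. The log2 differences were 2.29 for TuA3-520, 2.34 for TuA3-538a and 2.09 for TuA3-576c, all called by limma (adjusted p = 0.0188, 0.0369 and 0.0251), as were 49.6% of 18904 tested genes in that direction, with 12.8% called lower. The median difference of all genes was 1.22. After median-ratio scaling 0 of the 3 were called, beside 20.1% of all genes called lower and 31.5% higher. If 5 DPA library 2 or leaf library 3 was left out, 1 of the 3 was called. These groups differ in stage as well as tissue, and stage and tissue cannot be told apart.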

How the data were processed

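RNA-Seq of 18 libraries (6 groups of 3) was deposited by the authors as 1 table of FPKM, 1 column per library. Bowtie 0.12.2 is named in the submitters' processing notes, with the counting program, build and annotation not given in the sources used here. FPKM give no counts, so no counting interval was computed. The number of fragments limits the precision of the leaf and 5 DPA values.

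The log2(FPKM + 1) values entered limma 3.58.1 with trended variances (R 4.3.3), after genes that reached 1 FPKM in fewer than 3 of the fitted libraries had been left out. Endosperm contrasts and the F-test used all 15 endosperm libraries, and leaf contrasts the 6 libraries compared. P-values were adjusted over all tested genes by the Benjamini-Hochberg method. Ratios were tested as log2 ratios after 1 FPKM was added to both terms, while the ratios printed are without that addition. The test was an exact permutation (upper tail of the F statistic) over all 1401400 partitions of the 15 libraries, or 15400 without 1 stage, with Python 3.11.15. The scripts were tested on simulated data. Members and lists were chosen with earlier results of these data known. All 3 LMW-GS genes, both HMW-GS genes, the most and least abundant gliadin, and the 3 most alike genes of each member are named by rule. Regulators came from a name list that held 7 of the 12, and the other 5, TuPdi among them, were added with the table in view. As alternatives, pseudocounts of 0.1 and 5, no filter and a 5 FPKM filter were tried, as were median-ratio and total FPKM scaling, other sets of fitted groups, and each library left out. None of the 3 genes matched the RefSeq symbol table, so no position is given.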

Additional observations from a re-analysis of the deposited data

How the results depend on the processing

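No paired analysis was possible because the table's columns cannot be tied to individual samples. Of 318 recomputed log2 changes of single LMW-GS genes, 284 kept their direction and side of the threshold. Median-ratio scaling left 0 of 3 LMW-GS calls at 20 against 15 DPA and 0 at 5 DPA endosperm against leaf, and gave 1 at 25 against 20 DPA and 2 at 25 against 15 DPA. At 25 against 15 DPA, no filter and the compared groups alone gave 0, and leaving out 1 library gave 0 to 3. For 5 DPA against leaf, a pseudocount of 0.1 gave 0, leaving out 1 library gave 1 to 3, and at a filter of 5 FPKM none of the genes was tested. The cause was not tested. At 25 against 20 DPA, leaving out 1 library gave lowest and highest log2 changes of -1.32 and 0.62 for TuA3-520, -0.78 and 1.23 for TuA3-538a and -0.75 and 1.28 for TuA3-576c. There the sign of TuA3-520 turned with total FPKM scaling (0.52) and without 20 DPA library 2 (0.08), 25 DPA library 1 (0.62) or 25 DPA library 3 (0.39). TuA3-538a and TuA3-576c turned with median-ratio scaling (-2.17 and -2.11) and without 25 DPA library 2 (-0.78 and -0.75).

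For ratios between LMW-GS genes, leaving out 1 library gave adjusted p of 0.0371 to 0.484 for TuA3-538a to TuA3-520 (lowest without 5 DPA library 1), 0.00107 to 0.381 for TuA3-576c to TuA3-520 (lowest without 5 DPA library 2) and 4.5e-05 to 0.381 for TuA3-538a to TuA3-576c (lowest without 5 DPA library 1), and dropping the 5 DPA stage gave 1.9e-04, 9.7e-04 and 0.00136. For ratios to other classes, chosen after seeing the data, leaving out 1 library gave 0.0137 to 0.0892, 9.9e-04 to 0.0892 and 4.3e-04 to 0.00624 against the HMW-GS sum for TuA3-520, TuA3-538a and TuA3-576c. Against the α gliadin sum it gave 0.00678 to 0.0892, 9.6e-05 to 0.138 and 3.2e-04 to 0.0692, and against the γ and ω gliadin sum 0.00748 to 0.5, 0.00748 to 0.924 and 0.0197 to 0.972. A pseudocount of 0.1 gave 0.166 for TuA3-520 and TuA3-576c to the α gliadin sum. A pseudocount of 5 gave 9.8e-04 for TuA3-538a to the α gliadin sum and 0.00432, 0.0198 and 0.012 for the 3 genes to the γ and ω gliadin sum, and dropping 5 DPA gave 0.00438 for TuA3-538a to the α gliadin sum.

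Over all genes, 9460 calls at 10 against 5 DPA became 2340 after median-ratio scaling (944 higher, 1396 lower), 4030 at a pseudocount of 0.1 and 6239 without 5 DPA library 1. At 15 against 10 DPA 3484 became 1934 (616 higher, 1318 lower), 2090 and 2171 at pseudocounts of 0.1 and 5, 6271 with the compared groups alone and 6607 without 25 DPA. At 20 against 15 DPA 8476 became 2939 (736 higher, 2203 lower) and, at a pseudocount of 5, 3888. At 25 against 20 DPA 6876 became 1783 (1254 higher, 529 lower), 3901 at a pseudocount of 5, 29 with the compared groups alone and 221 to 11499 with 1 library left out. At 25 against 15 DPA 909 became 1650, 419 at a pseudocount of 5, 206 with the compared groups alone and 525 to 4845 with 1 library left out. At 25 against 5 DPA 14683 became 5964, and in the F-test 17877 became 10149. Leaf contrasts had 8153 calls at 10 DPA and 11804 at 5 DPA, and 5059 to 7725 and 6503 to 11692 with 1 library left out.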
